A study of Mus musculus with 6 samples.

Results

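The clustered histone genes encode most of the histone protein that a dividing cell needs, and here they were followed in sorted blood stem and progenitor cells of mice with an induced deletion of Setd1b. Members were the genes whose GENCODE M21 symbol begins with Hist1h, Hist2h, Hist3h or Hist4h and whose read counts, added over all 6 libraries, reached 10. They were thus selected on summed counts, and 65 of the 45706 genes in the count table met the rule. Of 70 such symbols in the annotation, 68 had an entry in the table and 3 of these stayed under the minimum, while Hist1h2bh and Hist1h2bm were not in the table. The member Hist3h2bb-ps is a pseudogene by its symbol and was grouped with the H2B genes of the Hist3 cluster.

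Nucleosomes are built from the core histones H2A, H2B, H3 and H4, and the linker histone H1 binds the DNA where it enters and leaves the particle. The clustered genes are mostly transcribed in S phase, while DNA is copied, and their short, mostly intronless mRNAs end in a conserved stem-loop in place of a poly(A) tail. The stem-loop is bound by Slbp, which is needed for processing, export and translation of these mRNAs, and variant histones made throughout the cell cycle come from polyadenylated mRNAs of genes elsewhere in the genome. Setd1b is a lysine methyltransferase of histone H3 and acts in a complex of the Trithorax family.

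The LSK compartment (lineage-negative, Sca-1 and c-Kit positive bone marrow cells) was sorted from C57BL/6 males, and total RNA of each mouse gave 1 library. Mice labelled HET carried 1 conditional allele (FD/+) and mice labelled HOM carried 2 (FD/FD), with 3 mice in each group. All 6 mice also carried 1 copy of the Cre-ERT2 fusion in the Rosa26 locus (RC/+), which is active in almost all tissues, and all received tamoxifen, so the HET group had also been exposed to the drug and to Cre. Tamoxifen was given by gavage at 4.5 mg per day for 4 days and, after a pause of 3 days, for 2 days more, and cells were taken 3 days after the last dose. The mice were aged 16 weeks, except that the mouse of HOM replicate 3 was aged 17 weeks. Total counts were 13003573, 21277519 and 16559472 for HET replicates 1 to 3 and 14512317, 15265730 and 14260925 for HOM replicates 1 to 3. Library numbers in the header of the count table ran from 10861 to 10863 and from 10973 to 10977. The gap between these runs was used to form 2 groups of 3 libraries. The first held HET 1, HOM 1 and HOM 2, and the second held HET 2, HET 3 and HOM 3, so both groups contained both genotypes in unequal number. Values are given as CPM (counts scaled by library size and TMM factors) in the order HET 1, 2, 3 and HOM 1, 2, 3 unless stated otherwise.

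Setd1b itself was at 221, 194 and 223 CPM in the libraries labelled HET and at 272, 288 and 314 CPM in those labelled HOM. All 3 libraries labelled HOM lay above all 3 labelled HET (log2 fold change 0.46, SE 0.07, adjusted p = 0.0015 with edgeR's quasi-likelihood test and Benjamini-Hochberg adjustment). The direction is opposite to that of a lost transcript, and counts per gene do not separate the deleted exon from the rest of the gene, so the genotypes were not checked by these values and the groups are named here by their labels. Genes of the LSK gate and of progenitors were measured in every library. Kit, the receptor behind c-Kit, was at 395 to 514 CPM and Ly6a, which encodes Sca-1, at 35.8 to 56.3 CPM. Cd34, which is not part of the gate, was at 405 to 451 CPM. Of 19 genes listed for other lineages and for stroma, 11 were too low to be tested, among them Cd3e, Cd8a, Ms4a1 and Ly6g.

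Together the members took 0.545% to 0.619% of the counts of a library. Of the 65 members, 62 passed the filter on low counts, and Hist1h1t, Hist1h2aa and Hist1h2br did not. On both sides of the minimum, Hist1h2ba, a testis-specific H2B gene, had 6 counts over all 6 libraries and was left out, and its neighbour Hist1h2aa had 18 and was kept. Hist1h1t, the testis-specific H1 gene, had 24 counts. Hist2h2aa1 and Hist2h3c1 had no count in any library. Their models overlap another gene on the same strand over 90.3% and 100% of their length, and a read that falls in more than 1 gene was not counted, so these zeros do not show that the genes were silent.

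Levels between genes were compared per kilobase of the counted model. The highest mean level was that of Hist1h1e, a linker histone gene, at 978 CPM per kb, followed by the H2A gene Hist1h2ak at 895 and the H4 gene Hist1h4d at 869 CPM per kb. Among the H1 genes Hist1h1a came next with 534 CPM per kb, among the H2A genes Hist1h2ab with 624 and among the H4 genes Hist1h4h with 256 CPM per kb. H2B and H3 genes were lower, with Hist1h2bn (231 CPM per kb) and Hist1h2bb (205 CPM per kb) leading the first type and Hist1h3e (124 CPM per kb) and Hist2h3b (97.0 CPM per kb) the second. The median over the members of a type was 467 CPM per kb for H1, 110 for H2A, 39.7 for H2B, 53.6 for H3 and 111 for H4. The lowest member was the H2B gene Hist1h2br with 0.1405 CPM per kb, and 12.9% of its 75-base windows had no copy elsewhere. Only unique alignments were counted, so low levels of such members may not show low expression.

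Of the 2 most abundant members of each type, all but Hist1h2ab, whose values follow further on, differed little between the genotypes. Hist1h1e was at 704, 716 and 804 CPM in HET and at 728, 676 and 762 CPM in HOM, and Hist1h1a at 340, 342 and 359 against 358, 324 and 332 CPM. The ranges of both linker histone genes overlapped, with log2 fold changes of -0.04 (SE 0.07) and -0.04 (SE 0.06). The H2A gene Hist1h2ak was at 367, 313 and 384 against 355, 322 and 368 CPM (log2 fold change -0.03, SE 0.08), and the H4 gene Hist1h4d at 326, 340 and 386 against 322, 324 and 351 CPM (log2 fold change -0.08, SE 0.07). Hist1h4h was at 114, 116 and 138 against 110, 113 and 136 CPM. In both H4 genes the highest value of each group came from a library of the second group of library numbers. Hist1h2bn was at 75.4, 89.4 and 114 against 77.9, 76.7 and 93.6 CPM, Hist1h2bb at 80.96, 88.6 and 107 against 95.2, 79.7 and 106 CPM, and Hist1h3e at 93.1, 96.2 and 123 against 100.1, 86.2 and 125 CPM. In these H2B and H3 genes HET 3 and HOM 3 were the highest libraries of their groups. Hist2h3b, an H3 gene of the cluster on chromosome 3, was at 47.8, 57.8 and 47.3 against 48.2, 43.7 and 39.2 CPM, with overlapping groups and a log2 fold change of -0.22 (SE 0.10), which was -0.12 without HET 2. None of the 9 genes in this paragraph passed the adjusted threshold with edgeR, where 7.67% of all genes did. An unadjusted p under 0.05 was found for 1 of the 9, Hist2h3b, where 22.9% of all genes had such a p. With DESeq2 0 of the 9 passed, where 8.78% of all genes did.

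The comparison of genotypes asks which transcripts differed shortly after the deletion had been induced. With edgeR, 3 of the 62 members tested passed an adjusted p of 0.05 between HOM and HET, where 7.67% of all genes tested passed, and all 3 were lower in HOM, where 3.79% of all genes were called in that direction. No member was called higher (0 with edgeR and 0 with DESeq2, 1 with an unadjusted p under 0.05 and a positive difference, where 11.3% of all genes had that), where 3.88% of all genes were. At an unadjusted p under 0.05 there were 13 members, where 22.9% of all genes reached it. Called members made up 4.84% of those tested, which is less than the share of all genes in either direction and more than the share of all genes that were lower, and those 13 members made up 20.97%. For the 3 members called lower, bulk RNA cannot tell fewer cells in S phase from less of their mRNA in each such cell, and neither was tested.

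Hist1h2bf, an H2B gene, showed the largest difference of the 3. It was at 24.3, 23.7 and 30.2 CPM in HET and at 15.4, 14.0 and 17.8 CPM in HOM. Every HOM library was below every HET library (mean ± SD 26.1 ± 3.59 in HET and 15.8 ± 1.91 CPM in HOM, n = 3 mice per group), and the fitted log2 fold change was -0.73 (SE 0.13, adjusted p = 0.0034 with edgeR and Benjamini-Hochberg adjustment). The difference was -0.72 within the first group of library numbers and -0.58 within the second on the log2 scale, and with the library-number group as a covariate the adjusted p of edgeR was 0.0063.

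Hist1h2af, an H2A gene, was at 85.3, 110.3 and 99.1 CPM in HET and at 72.6, 72.6 and 81.2 CPM in HOM. The groups did not overlap, and HET 2 was the highest library, while HOM 1 and HOM 2 were lowest (log2 fold change -0.38, SE 0.09, adjusted p = 0.016 with edgeR and Benjamini-Hochberg adjustment). The call was lost when HET 2 (log2 fold change -0.29, adjusted p = 0.070 with edgeR), HET 3 (-0.38, 0.060), HOM 1 (-0.36, 0.069) or HOM 2 (-0.36, 0.094) was left out.

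Hist1h3d, an H3 gene, was at 36.3, 44.1 and 38.0 CPM in HET and at 33.3, 28.8 and 30.1 CPM in HOM. Again no HOM library reached the HET range (log2 fold change -0.37, SE 0.10, adjusted p = 0.042 with edgeR and Benjamini-Hochberg adjustment). Its call was lost with the library-number group as a covariate (log2 fold change -0.34, adjusted p = 0.078 with edgeR), with the trend against gene length removed (-0.28, 0.080), and without HET 2 (-0.28, 0.17), HET 3 (-0.40, 0.079), HOM 2 (-0.32, 0.18) or HOM 3 (-0.35, 0.11).

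Without regard to the test, 6 members (Hist1h1b, Hist1h2ap, Hist1h2af, Hist1h2bf, Hist1h2ad and Hist1h3d) had all HOM libraries below all HET libraries, where 13.4% of all genes tested did. In the opposite direction, Hist3h2ba was the 1 member with all HOM libraries above all HET libraries, where 13.97% of all genes were. Hist3h2ba, an H2B gene of the small cluster on chromosome 11, was at 1.61, 1.72 and 1.86 CPM in HET and at 3.82, 2.16 and 3.16 CPM in HOM (log2 fold change 0.81, SE 0.33, adjusted p = 0.15 with edgeR and Benjamini-Hochberg adjustment). Its level rested on 222 counts over all 6 libraries.

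**Figure D1:**
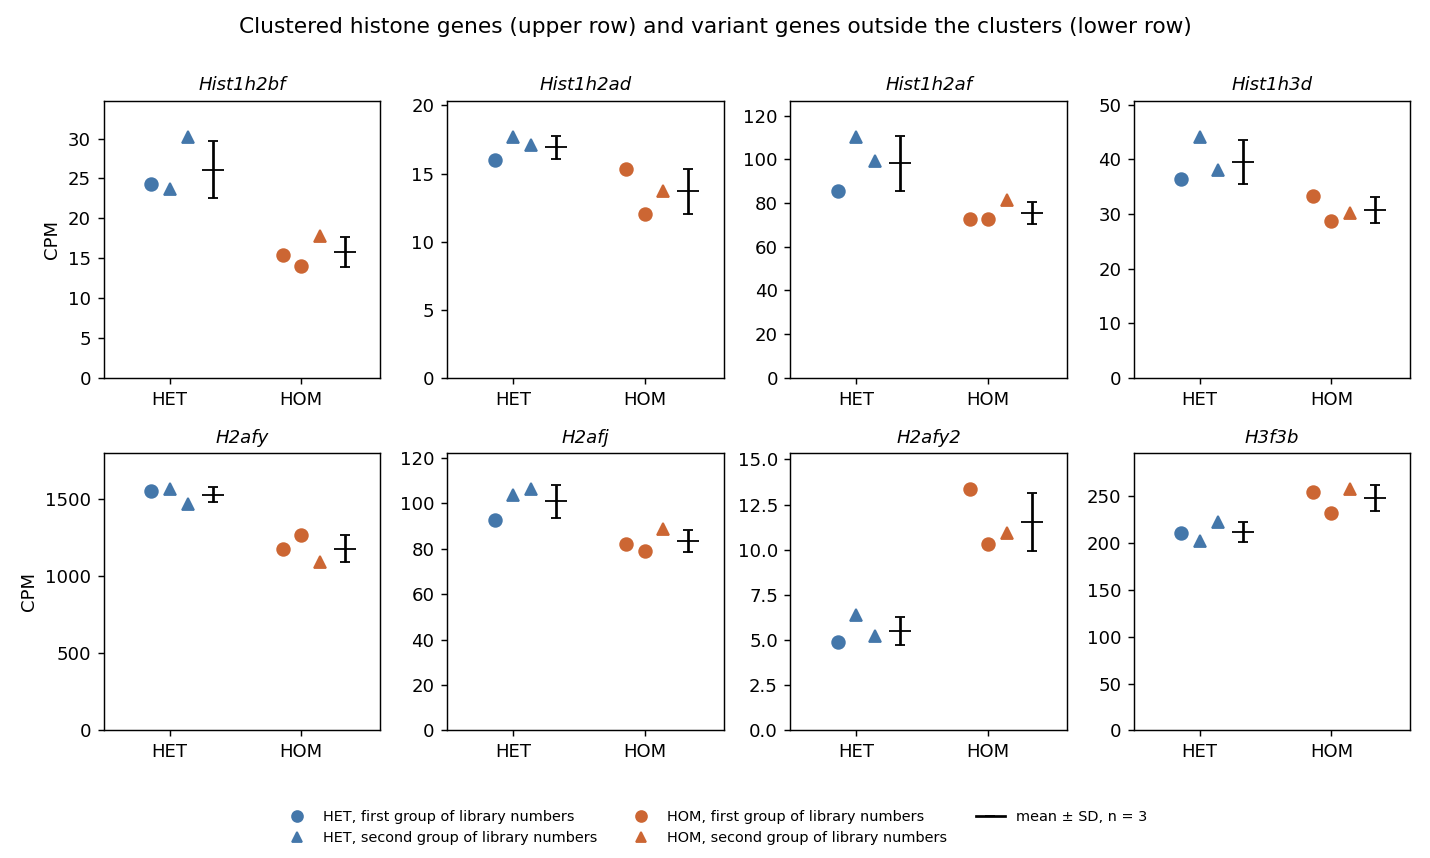
CPM of single genes in each library, where each panel shows 1 gene, with CPM on the vertical axis starting at 0, the libraries labelled HET in blue and HOM in orange, circles for the first and triangles for the second group of library numbers, and the mean ± SD (n = 3) in black. In Hist1h2bf the HOM libraries lie at 14.0 to 17.8 CPM and the HET libraries at 23.7 to 30.2 CPM, and in H2afy2 the order is the opposite.

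The fitted log2 fold changes of the members ran from -0.73 (Hist1h2bf) to 0.81 (Hist3h2ba), with a median of -0.08, beside 0.00023 for all genes tested. They were below 0 in 47 of the 62 members and in 49.9% of all genes. The median turned to 0.0053 when trends with gene length were taken out library by library, with -0.02 for all genes, and was -0.04 with the library-number group as a covariate. Removing the length trend took away the sign as well as the size of the median, so no direction is given for the members as a whole.

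By type, 14 of 18 H2A genes tested were below 0, with a median of -0.21 and a range from -0.40 (Hist1h2an) to 0.53 (Hist1h2al, which has 131 counts over all libraries). For H3, 10 of 11 were below 0 (median -0.13), for H2B 11 of 15 (median -0.07), for H4 8 of 13 (median -0.05) and for H1 4 of 5 (median -0.04). Hist1h2an was at 44.4, 86.7 and 50.9 CPM in HET and at 47.8, 43.9 and 47.1 CPM in HOM, so HET 2 stood apart from the other 5 libraries. Hist1h2ab was likewise highest in HET 2, at 258, 398 and 328 CPM in HET against 263, 228 and 296 CPM in HOM. Its log2 fold change was -0.32 (SE 0.12, adjusted p = 0.13 with edgeR and Benjamini-Hochberg adjustment) with all libraries, -0.16 without HET 2 and -0.47 without HET 1, where it passed (adjusted p = 0.013 with edgeR), as it did with the GC trend removed (0.0497) and with no filter on low counts (0.00014).

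Summed over a type, H1 came to 2189, 2127 and 2428 CPM in HET and to 2241, 2046 and 2286 CPM in HOM. H2A came to 1522, 1771 and 1737 against 1555, 1375 and 1582 CPM, and H2B to 526, 580 and 668 against 545, 514 and 587 CPM. H3 came to 380, 435 and 456 against 387, 348 and 428 CPM, and H4 to 1037, 1047 and 1269 against 1055, 1003 and 1145 CPM. The groups overlapped in all 5 types, and HOM 2 had the lowest sum in each. The log2 ratios of the means of HOM and HET were -0.04 for H1, -0.16 for H2A, -0.11 for H2B, -0.13 for H3 and -0.07 for H4. Within the first group of library numbers they lay between -0.05 (H2A) and 0.01 (H2B) and within the second between -0.15 (H2A) and 0.0051 (H1). The ratio of H1 was above 0 without HET 3 (0.018) or HOM 2 (0.010), and it was -0.077 without HET 2. That of H4 was 0.031 without HET 3 and -0.12 without HOM 3. For H2B the ratio was -0.015 without HET 3 and -0.19 without HET 1. With a library left out the ratio of H2A ran from -0.22 to -0.10 and that of H3 from -0.21 to -0.06. No test was made on these sums.

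**Figure D2:**
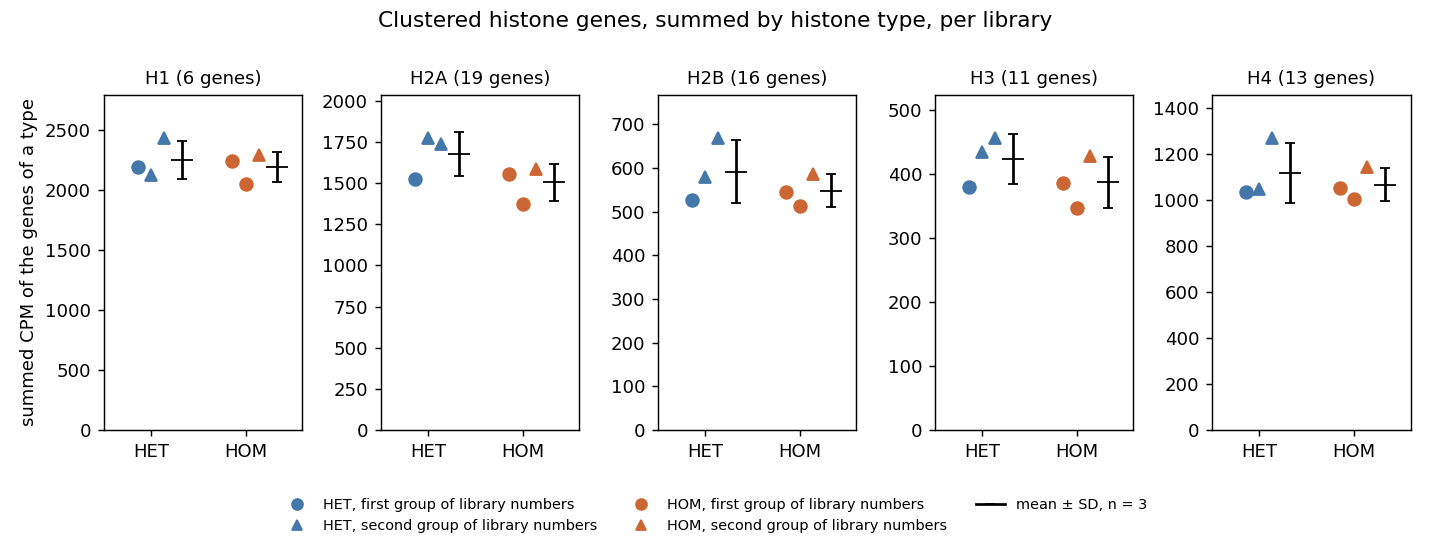
Summed CPM of the clustered histone genes by histone type, where each panel is 1 type, with the summed CPM of its genes on the vertical axis starting at 0, libraries labelled HET in blue and HOM in orange, circles and triangles for the first and second group of library numbers, and the mean ± SD (n = 3) in black. The HET and HOM libraries overlap in all 5 panels, and H1 has the highest sums, at 2046 to 2428 CPM.

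By cluster, the 53 Hist1 members on chromosome 13 summed to 4995, 5270 and 5770 CPM in HET and to 5094, 4648 and 5319 CPM in HOM. The 8 Hist2 members on chromosome 3 summed to 579, 609 and 697 against 605, 564 and 625 CPM, and the single Hist4 member Hist4h4 on chromosome 6 was at 73.6, 76.1 and 86.6 against 74.4, 67.2 and 75.05 CPM. HET 3 was the highest library in all of these. The 3 Hist3 members on chromosome 11 summed to 7.27, 5.58 and 5.31 against 9.85, 6.73 and 8.91 CPM, with overlapping groups and a log2 ratio of 0.49, compared with -0.09 for Hist1, -0.07 for Hist2 and -0.13 for Hist4. For Hist3 it was 0.19 within the first group of library numbers and 0.71 within the second. For Hist2 it was 0.0060 without HET 3 and -0.13 without HET 1. With a library left out it ran from -0.14 to -0.04 for Hist1 and from -0.17 to -0.06 for Hist4.

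Between the groups of library numbers, with genotype in the model, 0 of the 62 members passed an adjusted p of 0.05 with edgeR, where 0.105% of all genes did. DESeq2 called 1 member, Hist1h2ab (adjusted p = 0.017 with DESeq2). At an unadjusted p under 0.05 there were 17 members, all higher in the second group, where 7.55% of all genes reached that p and 4.04% did so with higher values in the second group. The median log2 fold change of the members was 0.14, beside 0.00013 for all genes tested, and 53 of 62 members were above 0, where 50.03% of all genes were.

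The 5 members with the smallest adjusted p were Hist1h2ab, Hist1h2bn, Hist1h3a, Hist2h4 and Hist1h3c. In the first group, Hist1h2ab was at 258 CPM in HET 1, 263 in HOM 1 and 228 in HOM 2, and in the second at 398 in HET 2, 328 in HET 3 and 296 in HOM 3, without overlap (log2 fold change 0.38, SE 0.09, adjusted p = 0.21 with edgeR and Benjamini-Hochberg adjustment). Hist1h2bn, at 75.4, 77.9 and 76.7 CPM in the first group and 89.4, 114 and 93.6 in the second, had a log2 fold change of 0.35 (SE 0.09). The H4 gene Hist2h4 was at 116, 122 and 109.5 CPM in the first group and at 127, 175 and 147 in the second (log2 fold change 0.36, SE 0.10). These ranges did not overlap either. The H3 gene Hist1h3a was at 25.4, 23.1 and 23.1 CPM in the first group and 27.6, 37.8 and 34.9 in the second (log2 fold change 0.48, SE 0.13), and the H3 gene Hist1h3c at 38.6, 38.9 and 38.1 CPM in the first and 42.8, 51.6 and 50.3 in the second (log2 fold change 0.34, SE 0.10). Within each genotype the sums of H3 genes were higher in the second group, by a log2 ratio of 0.23 in HET and 0.22 in HOM, and those of H1 by 0.06 and 0.09. Without HET 2, where 0.451% of all genes were called, 7 members were called (Hist2h2aa2, Hist2h4, Hist1h2bn, Hist1h3e, Hist1h2ab, Hist1h4a and Hist1h3a).

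Transcripts that moved with the groups of library numbers included other RNAs without a poly(A) tail. Rmrp, the RNA of a ribonuclease complex, was at 987, 1007 and 1139 CPM in HET 1, HOM 1 and HOM 2 and at 1304, 1571 and 1578 CPM in HET 2, HET 3 and HOM 3 (log2 fold change 0.55, SE 0.07, adjusted p = 0.0034 with edgeR and Benjamini-Hochberg adjustment). Rny3, a Y RNA, was also higher in the second group (log2 fold change 1.33, SE 0.22, adjusted p = 0.026 with edgeR, and 0.25 with DESeq2). These were the 2 called with edgeR among the 12 listed RNAs of this kind, where 0.105% of all genes were called. DESeq2 called 1 of the 12, where it called 0.165% of all genes. At an unadjusted p under 0.05 with edgeR there were 7, where 7.55% of all genes had such a p. The median log2 fold change of the 12 was 0.42. The rRNA-like transcript Gm42418 was at 28291, 21603 and 22050 CPM in the first group and at 56783, 73965 and 51132 CPM in the second (log2 fold change 1.22, SE 0.08, adjusted p = 1.1e-06 with edgeR and Benjamini-Hochberg adjustment). Their part in the values of the histone genes was not tested. In the test of whether the genotype difference itself differed between the groups of library numbers, 0 of 62 members passed with edgeR, where 0.00659% of all genes did, and 4 members (Hist2h2bb, Hist1h2ah, Hist1h2ag and Hist1h3b) had an unadjusted p under 0.05, where 6.20% of all genes did.

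**Figure D3:**
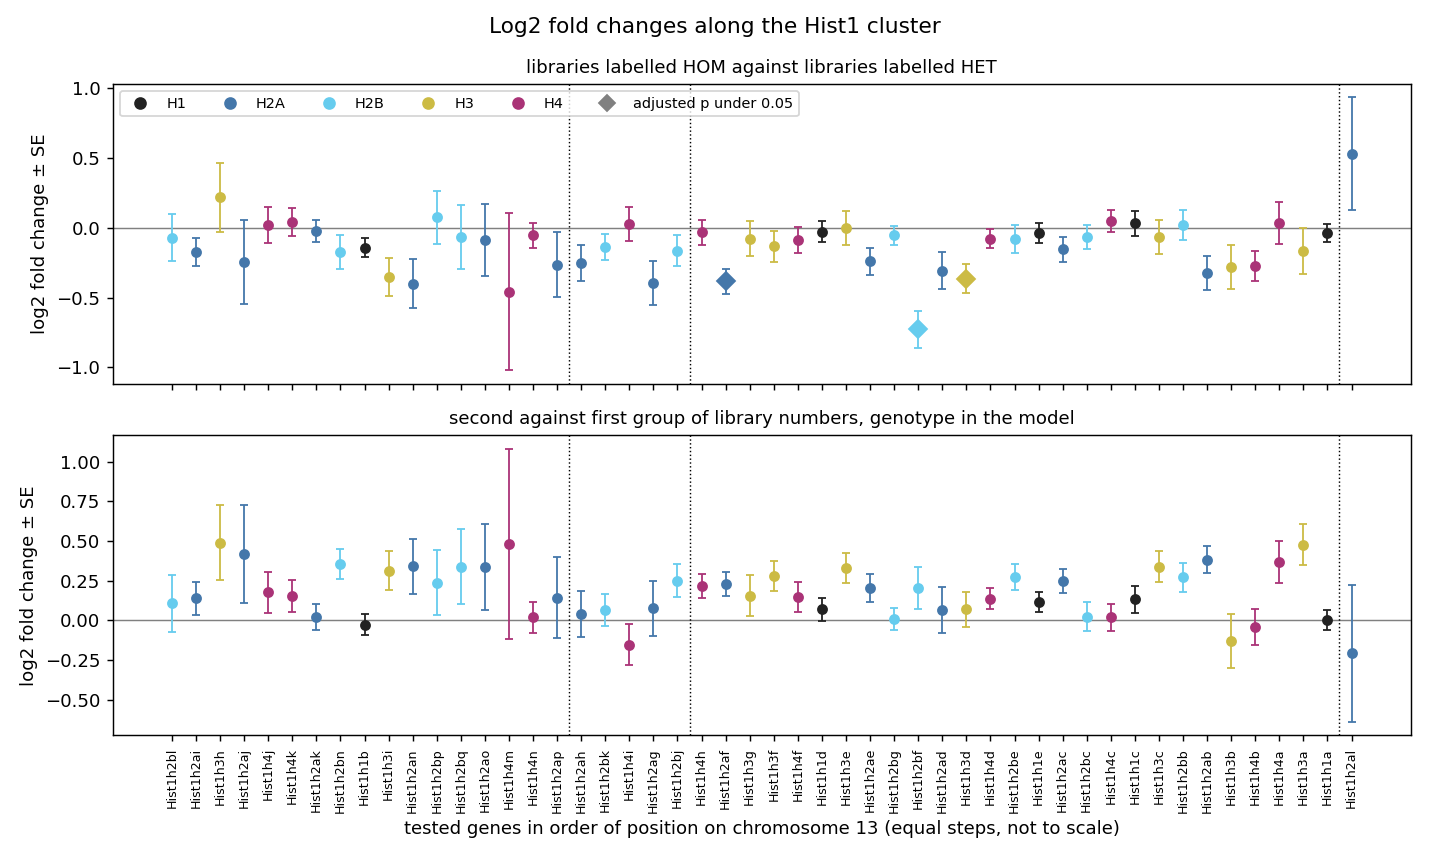
Log2 fold changes along the Hist1 cluster, where the tested genes of chromosome 13 stand in order of position in equal steps (dotted lines mark gaps of over 100000 bases), with the fitted log2 fold change ± SE on the vertical axis, colours for the histone types and diamonds for an adjusted p under 0.05 with edgeR. The upper panel compares HOM with HET and has 3 diamonds, Hist1h2af, Hist1h2bf and Hist1h3d, and the lower panel compares the second with the first group of library numbers and has none.

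The Hist1 cluster lies in separate stretches of chromosome 13 (build GRCm38). The first, chr13:21715763-21837530, holds 18 members, a short one, chr13:22035164-22043676, holds 5, and the longest, chr13:23531050-23764358, holds 28, while Hist1h2aa and Hist1h2al stand apart. All 3 called genes were in the longest stretch. Hist1h2af is at chr13:23533906-23534304 on the plus strand, Hist1h2bf at chr13:23573736-23574196 on the minus strand and Hist1h3d at chr13:23575763-23576322 on the plus strand, and each model is a single exon. The medians of the log2 fold changes between HOM and HET were -0.09, -0.16 and -0.08 in the 3 stretches.

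H2A and H2B genes often stand head to head, sharing the DNA between their start sites as a promoter for both directions. Among the members 12 such pairs were found with fewer than 1000 bases between the starts, all of 1 H2A and 1 H2B member. The distance ran from 172 to 301 bases with a median of 271. The shortest was that of Hist3h2a and the pseudogene Hist3h2bb-ps, and the next was 235 bases, between Hist1h2ap and Hist1h2br. Hist1h2bf forms such a pair with the H2A gene Hist1h2ad, with 273 bases between them. Hist1h2ad was at 16.0, 17.7 and 17.1 CPM in HET and at 15.3, 12.01 and 13.7 CPM in HOM. Its groups did not overlap either, with a log2 fold change of -0.31 (SE 0.13) and an adjusted p of 0.18 with edgeR and Benjamini-Hochberg adjustment. The neighbouring pair of Hist1h2ae and Hist1h2bg had log2 fold changes of -0.24 (SE 0.10) and -0.05 (SE 0.07), and Hist1h2ag and Hist1h2bj had -0.40 (SE 0.16) and -0.16 (SE 0.11), without a call in either pair.

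Promoters were looked up by symbol in a RefSeq table on GRCm38.p6, in which 57 of the 65 members were found. The 250 bases upstream of the start were searched on both strands for CCAAT and TATAAA, for the octamer ATTTGCAT known from H2B promoters, and for AAACACA, an element known from H1 promoters, and none of these words contains another. CCAAT was found in 47 of 57 members (82.5%) and in 34.5% of 27025 RefSeq promoters of the same length, and TATAAA in 28 members (49.1%) and in 12.97% of all promoters. CCAAT was present in all 6 H1, all 17 H2A and all 13 H2B promoters and in 8 of 9 of H3, but in 3 of 12 of H4. ATTTGCAT was found in 7 of 17 H2A and 4 of 13 H2B promoters and in 1.61% of all promoters, and AAACACA in 5 of 6 H1 promoters, 2 of 17 H2A promoters and 6.22% of all promoters. These counts are not of separate DNA. Head-to-head genes share bases, as in Hist1h2ag (chr13:22042950-22043199) and Hist1h2bj (chr13:22042948-22043197), so a word there counts for both H2A and H2B. The runs of Hist1h2bq and Hist1h2br are identical in sequence. None of the 3 promoters of called genes holds ATTTGCAT or AAACACA in this window.

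The promoters of the 3 genes called between the genotypes are shown because these genes passed the test, and that of the most abundant H1 gene, Hist1h1e, for its AAACACA, which the others lack. Capitals mark the 4 words on either strand, and each run is the 250 bases upstream of the RefSeq start on the strand of the gene, for Hist1h2bf chr13:23574208-23574457 (minus), for Hist1h2af chr13:23533625-23533874 (plus), for Hist1h3d chr13:23575513-23575762 (plus) and for Hist1h1e chr13:23622559-23622808 (minus). The run of Hist1h2bf covers most of the DNA up to the GENCODE start of Hist1h2ad and reaches past the RefSeq start of that gene.
Hist1h2bf: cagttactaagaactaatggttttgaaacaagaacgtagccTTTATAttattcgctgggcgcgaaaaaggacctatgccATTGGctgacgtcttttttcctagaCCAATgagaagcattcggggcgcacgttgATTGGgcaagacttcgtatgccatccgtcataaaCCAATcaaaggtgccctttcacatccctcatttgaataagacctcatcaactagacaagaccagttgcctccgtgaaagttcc
Hist1h2af: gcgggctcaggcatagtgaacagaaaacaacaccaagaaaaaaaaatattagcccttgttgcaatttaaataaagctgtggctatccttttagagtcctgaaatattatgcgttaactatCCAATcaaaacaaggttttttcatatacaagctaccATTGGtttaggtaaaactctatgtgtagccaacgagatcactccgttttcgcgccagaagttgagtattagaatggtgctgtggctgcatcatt
Hist1h3d: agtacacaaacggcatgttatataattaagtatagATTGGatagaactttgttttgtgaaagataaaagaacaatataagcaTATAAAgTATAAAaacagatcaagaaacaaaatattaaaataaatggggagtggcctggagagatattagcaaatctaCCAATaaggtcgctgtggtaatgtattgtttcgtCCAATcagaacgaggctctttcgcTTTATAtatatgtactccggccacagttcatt
Hist1h1e: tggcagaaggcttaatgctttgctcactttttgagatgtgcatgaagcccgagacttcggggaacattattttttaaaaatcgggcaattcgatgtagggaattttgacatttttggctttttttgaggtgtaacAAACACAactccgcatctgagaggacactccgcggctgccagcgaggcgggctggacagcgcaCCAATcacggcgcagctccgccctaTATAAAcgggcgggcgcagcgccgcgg

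A stem-loop with a stem of 6 base pairs and a loop of 4 bases was found downstream of the stop codon in 42 of the 65 members, between 22 and 59 bases after the stop (median 32.5). For the other 23, Hist1h2af among them, none was found in the annotated transcripts. Only annotated bases were searched, so a stem-loop beyond the end of a transcript could not be found. The model of Hist1h2af, for example, is 399 bases long. These 23 genes are therefore not shown to lack a stem-loop. Of the stem-loops found, 41 lie inside the model that was counted, and that of Hist1h3g lies outside. The sequences are shown because the stems of H4 genes differ from those of the other types, which share theirs, and capitals mark the stem. The first was found in 22 members and in no H4 gene, among them Hist1h2bf (chr13:23573765-23573780, minus), Hist1h3d and Hist1h1e. The second was found in 6 members of H1, H2B and H3, the third in 7 members, all of them H4 genes, among them Hist1h4d (chr13:23581950-23581965, plus), and the fourth in 2 H4 genes, among them Hist1h4j.
Hist1h2bf: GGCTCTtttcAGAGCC
Hist1h2bk: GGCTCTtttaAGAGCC
Hist1h4d: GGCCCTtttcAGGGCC
Hist1h4j: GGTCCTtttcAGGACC

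Copies of a histone type share long identical stretches. Of the 75-base windows of a member's model, a median of 49.6% over the members had no identical copy in the transcripts of another gene, and 33 members had under 50% of such windows. H1 genes differ more from each other (median 96.7%), and in Hist1h1a and Hist1h1b all windows were without a copy. The share was 43.4% for Hist1h2bf, 29.5% for Hist1h2af and 46.5% for Hist1h3d. None of the windows of Hist2h2aa2 was without a copy, yet it had 3956 counts over all libraries, so the share does not tell how many reads of a gene were counted.

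The 9 members with a model over 1000 bases were Hist1h1c, Hist1h2be, Hist1h2bq, Hist1h2br, Hist2h2be, Hist2h3c2, Hist2h4, Hist3h2a and Hist4h4. None of the 8 tested was called between the genotypes with edgeR, where 7.67% of all genes were, or with DESeq2, where 8.78% were. An unadjusted p under 0.05 was found for 0 of the 8, where 22.9% of all genes had such a p. The log2 fold changes of the 8 ran from -0.53 (Hist2h2be) to 0.19 (Hist3h2a), with a median of -0.07. Hist1h1c, an H1 gene with a known polyadenylated form, was at 446, 398 and 492 CPM in HET and at 450, 402 and 514 CPM in HOM, and its groups overlapped. Per length it was also the most abundant of these genes, at 289 CPM per kb.

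Among 11 genes for histone variants outside the clusters, all tested, 2 were lower and 2 higher in HOM with edgeR, where 7.67% of all genes were called. DESeq2 called 5, where it called 8.78% of all genes, and 6 had an unadjusted p under 0.05, where 22.9% of all genes did. H2afy encodes macroH2A, an H2A variant with a large extra domain, and was the most abundant gene of this list. It was at 1555, 1565 and 1474 CPM in HET and at 1179, 1269 and 1094 CPM in HOM, without overlap (log2 fold change -0.38, SE 0.07, adjusted p = 0.0027 with edgeR and Benjamini-Hochberg adjustment). H2afy2, which encodes the second macroH2A, was at 4.90, 6.39 and 5.25 CPM in HET and at 13.3, 10.3 and 10.9 CPM in HOM (log2 fold change 1.05, SE 0.18, adjusted p = 0.0025 with edgeR and Benjamini-Hochberg adjustment). The macroH2A genes thus moved in opposite directions, and both calls held with each library left out in turn. H2afj, an H2A variant gene, was at 92.8, 103.7 and 106 CPM in HET and at 82.3, 79.1 and 88.6 CPM in HOM (log2 fold change -0.28, SE 0.08, adjusted p = 0.036 with edgeR and Benjamini-Hochberg adjustment). H3f3b, which encodes the replacement histone H3.3, was at 211, 201 and 222 against 254, 231 and 257 CPM (log2 fold change 0.23, SE 0.07, adjusted p = 0.048 with edgeR and Benjamini-Hochberg adjustment). The call of H2afj was lost without HET 2, HET 3, HOM 1 or HOM 2 (adjusted p up to 0.17 with edgeR) and with the library-number group as a covariate (adjusted p = 0.066 with edgeR), and that of H3f3b with each of the 6 left out (adjusted p up to 0.15), with DESeq2 size factors and with the length or the GC trend removed. The fifth gene with DESeq2, H1fx, a linker histone variant, was at 30.3, 25.8 and 38.5 CPM in HET and at 40.7, 39.01 and 49.03 CPM in HOM. Its groups did not overlap (log2 fold change 0.45, adjusted p = 0.053 with edgeR, 0.028 with edgeR and the library-number group as a covariate, and 0.026 with DESeq2). H3f3a, the other H3.3 gene, was at 58.4 to 65.0 CPM in all libraries and H2afz, for H2A.Z, at 31.6 to 41.1 CPM, both without a call.

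Of 15 genes for transcription and 3' end processing of histone mRNAs, 0 passed with edgeR, where 7.67% of all genes did. With DESeq2 0 passed, where 8.78% of all genes did, and 0 had an unadjusted p under 0.05, where 22.9% of all genes did. Slbp, the stem-loop binding protein, was at 109, 101 and 114 CPM in HET and at 108, 105 and 101 CPM in HOM, and Npat, the activator of the clustered genes, at 83.8, 79.4 and 81.5 against 81.5, 85.6 and 78.5 CPM. The smallest adjusted p in this list were those of Sympk, Cstf2 and Upf1, with log2 fold changes of -0.15 (SE 0.08), -0.10 (SE 0.06) and -0.12 (SE 0.08). Of 15 histone chaperone genes, 0 passed with edgeR, where 7.67% of all genes did, and 0 with DESeq2, where 8.78% did. An unadjusted p under 0.05 was found for 3, where 22.9% of all genes had such a p. These were Hat1 (log2 fold change -0.19, SE 0.07), Nap1l1 (-0.17, SE 0.07) and Hira (-0.28, SE 0.13).

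Of 22 S phase genes, 4 were lower and 0 higher in HOM with edgeR, where 3.79% of all genes were called lower. DESeq2 called 3, where it called 8.78% of all genes, and 9 had an unadjusted p under 0.05, where 22.9% of all genes did. E2f1, a transcription factor that drives entry into S phase, was at 51.3, 52.2 and 52.4 CPM in HET and at 41.7, 41.7 and 41.0 CPM in HOM. These groups were far apart compared with their spread (log2 fold change -0.33, SE 0.08, adjusted p = 0.019 with edgeR and Benjamini-Hochberg adjustment). Cdt1, which loads the replicative helicase, was at 113, 119 and 116 against 102, 89.5 and 99.9 CPM (log2 fold change -0.26, SE 0.07, adjusted p = 0.036 with edgeR and Benjamini-Hochberg adjustment), and Cdc6, its partner in loading, had a log2 fold change of -0.29 (SE 0.08, adjusted p = 0.047 with edgeR and Benjamini-Hochberg adjustment). Mcm5, a helicase subunit, was at 343, 347 and 361 CPM in HET and at 171, 330 and 155 CPM in HOM, so HOM 2 was close to the HET range (adjusted p = 0.042 with edgeR and Benjamini-Hochberg adjustment, and 0.28 with DESeq2), and its log2 fold change ran from -1.10 to -0.48 with a library left out. Each of the 4 calls was lost with 5 of the 6 libraries left out, those of E2f1 and Cdt1 with any but HET 1, that of Cdc6 with any but HOM 1 and that of Mcm5 with any but HOM 2. The adjusted p of edgeR then reached up to 0.072 for E2f1, 0.19 for Cdt1, 0.18 for Cdc6 and 0.16 for Mcm5. The log2 fold change stayed between -0.33 and -0.32 for E2f1, -0.29 and -0.20 for Cdt1, and -0.38 and -0.23 for Cdc6. With the library-number group as a covariate Cdt1 was not called (adjusted p = 0.062 with edgeR), which left 3 of the list. The median log2 fold change of the list was -0.09.

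Of 16 genes of G2 and M phase, 0 passed with edgeR, where 7.67% of all genes did, and 1 with DESeq2 (Ccnb2), where 8.78% did. At an unadjusted p under 0.05 there were 3 (Ccnb2, Cenpf and Ccna2), where 22.9% of all genes had such a p. Mki67, the proliferation marker behind Ki-67, was the most abundant of the 16, at 1807, 1543 and 1733 CPM in HET and at 1768, 1661 and 1627 CPM in HOM. Ccnb2, a mitotic cyclin, was at 60.1, 58.3 and 62.9 against 52.4, 50.3 and 49.0 CPM (log2 fold change -0.26, SE 0.08, adjusted p = 0.055 with edgeR and Benjamini-Hochberg adjustment). The median of this list was 0.0064. Of the 12 other RNAs without a poly(A) tail, 0 passed between the genotypes with edgeR, where 7.67% of all genes did, and 0 with DESeq2, where 8.78% did. At an unadjusted p under 0.05 there was 1, Rnu73b, where 22.9% of all genes had such a p. Of the rRNA-like transcripts Gm42418 and Gm26917, 0 passed with edgeR or DESeq2, while with the library-number group as a covariate Gm42418 was called lower in HOM (adjusted p = 0.0099 with edgeR).

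Genes that mark subsets of the LSK gate and other cell types also differed between the genotypes. Among genes of the gate and of progenitors, Procr and Mecom, both known from blood stem cells, were higher in HOM. Procr was at 5.59, 5.20 and 3.65 CPM in HET and at 13.4, 11.2 and 14.4 CPM in HOM (log2 fold change 1.43, SE 0.19, adjusted p = 0.00036 with edgeR and Benjamini-Hochberg adjustment). Mecom, a transcription factor gene, had a log2 fold change of 0.45 (SE 0.08), and its groups did not overlap. The 19 lineage genes summed to 178, 184 and 175 CPM in HET and to 170, 163 and 153 CPM in HOM. Pecam1, which blood progenitors express too, was the most abundant of them and made up most of this sum, at 112, 119 and 115 against 92.6, 90.3 and 93.6 CPM (log2 fold change -0.33, SE 0.06). Of these genes 8 were tested, with 4 lower (Jchain, S100a8, Cxcl12 and Pecam1) and 1 higher (Itgam), where 3.79% of all genes were called lower and 3.88% higher. The call of S100a8 was lost with each library but HET 2 left out (adjusted p up to 0.13 with edgeR) and that of Itgam without HET 1, HET 2, HOM 1 or HOM 2 (up to 0.10). Jchain, an antibody chain of plasma cells, was at 8.34, 7.39 and 1.92 CPM in HET and at 0.603, 1.52 and 0.351 CPM in HOM. No listed gene had 0 counts in all libraries. The part of these genes, and of the cells they mark, in the values of the histone genes was not tested.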

How the data were processed

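RNA of LSK cells from 6 mice was prepared with a stranded kit for total RNA and read as 75-base single reads. The authors converted the runs with bcl2fastq 2.17.1.14, aligned the reads to mm10 with GSNAP 2015-12-31 and counted unique alignments with featureCounts 1.5.0 on gene models of Ensembl, keeping reads of the sense strand (option 1) with a mapping quality of at least 1 and without reads that fall in more than 1 gene. The deposited values are whole-number counts per gene, neither normalized nor pooled, and gene length in bases. Symbols from GENCODE M21 named 45143 of 45706 genes, which hold 99.9% or more of every library's counts.

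Differences were tested with edgeR 4.0.16 in R 4.3.3 (TMM, filterByExpr, 15184 genes, quasi-likelihood test), with p-values adjusted by Benjamini and Hochberg over all genes tested and a threshold of 0.05. Genotype was the only term, and library-number groups were compared with genotype in the model. SE was taken from the fit as the size of the log2 fold change over the root of F. Differences within a library-number group used log2 CPM with a prior count of 2. DESeq2 1.42.0 and the other settings given at the end were alternatives. An exact permutation of 3 against 3 libraries cannot go below p = 0.1 and was not used. Labels do not say whether mice were processed together, and the library-number groups rest only on the gap between the numbers in the header. Copies of 75-base windows were searched in GENCODE transcripts.

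The members and the gene lists were chosen with earlier results of these data known. Named were Setd1b, members past the threshold, the 2 most abundant per length of each type, the 5 with the smallest adjusted p between library-number groups, those nearest to 10 counts, and up to 3 genes of each list with the smallest adjusted p. Other genes were named after their values had been seen, among them Hist1h2ad, Hist1h2an, Hist1h1c, H3f3b, H1fx, H3f3a, H2afz, Slbp, Npat, Cdc6 and Mki67.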

Additional observations from a re-analysis of the deposited data

How the results depend on the processing

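The count of 3 members called between HOM and HET was 7 with no filter on low counts (where 6.50% of all genes were called), 1 at an adjusted p of 0.01 (3.38%) and 1 in a test against a change of 1.2-fold (2.25%), and between 1 and 5 with a library left out (3.89% to 7.19%). It was 4 with the GC trend removed (8.36%) and 2 with the length trend removed (8.99%) or the library-number group as a covariate (7.17%). Hist1h2bf was called in all 14 settings in which the single genes were refitted, with an adjusted p of edgeR up to 0.029. Between the library-number groups 0 members became 5 with no filter (0.560% of all genes), 1 with DESeq2 (0.165%) and 0 to 7 with a library left out (0.0511% to 0.451%). The cause was not tested. With the library-number group as a covariate, 1 rRNA-like transcript was called in place of 0.

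Signs of genes without a call turned in several settings, with no call gained there. With the trend against gene length removed, the log2 fold change was 0.036 for Hist1h1e, 0.043 for Hist1h1a, 0.065 for Hist1h2ak, 0.069 for Hist1h3e, 0.020 for Hist1h4d and 0.051 for Hist1h4h, and with the GC trend removed -0.0063 for Hist1h2bb. With the library-number group as a covariate it was 0.00014 for Hist1h1e, 0.10 for Hist1h3e and 0.037 for Hist1h4h. With a library left out it ran from -0.082 to 0.021 for Hist1h1e, -0.11 to 0.032 for Hist1h2ak, -0.080 to 0.13 for Hist1h2bb, -0.16 to 0.13 for Hist1h3e and -0.14 to 0.055 for Hist1h4h.

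Over all settings the median of the members ran from -0.15 to 0.0053 between HOM and HET and from 0.09 to 0.18 between the library-number groups. No paired analysis was made, because the mouse numbers in the labels are not tied to litters or days. With 3 mice in each group, small changes could be missed, most of all in members with few counts such as Hist1h4m, with 63 over all libraries.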
